A study of Rattus norvegicus with 35 samples.

Results

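Collagens are the extracellular matrix proteins built as triple helices, and 44 genes of the rat family were represented among the 34766 gene names of the array. The genes were taken by name alone: every probe outside the controls whose gene name was Col, a number, the letter a and a second number entered, which gave 80 of 45598 probes. Of the 44 genes, 39 were measured well enough to be tested. The other 5 genes (Col10a1, Col11a1, Col24a1, Col25a1 and Col28a1) were well above background on 0 to 3 of the 35 arrays and are not described further.

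The rats were female Sprague Dawley animals, 12 weeks old when instillation began, and RNA came from the accessory lobe of the lung, taken 3 days post exposure. The multi-walled carbon nanotube materials Mitsui-7 and NM-403 were given by intratracheal instillation once a week for 4 weeks at 0.25 mg/rat; the labels do not say whether that is the dose of each instillation or the total. Controls received the vehicle, Pluronic. Each material and the vehicle were given to Wild Type (WT) rats and to rats labelled GMO [heterozygous for p53], called p53het here, with 6 rats in each group and 5 in the p53het NM-403 group. The labels do not describe the altered p53 allele. Each rat gave 1 array, so the p-values of group differences below rest on the spread between arrays within groups. Unless slide was in the fit, that spread holds differences between array slides as well as between rats.

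Fibrillar collagens (types I, II, III, V, XI, XXIV and XXVII) assemble into the banded fibres that give lung tissue its tensile strength, with type I and type III the main ones in the lung interstitium. Other classes bind to the surface of fibrils, form the sheet-like network of basement membranes, make beaded microfilaments, span the plasma membrane, or carry chains of heparan or chondroitin sulphate. Fibroblasts and myofibroblasts make most of the fibrillar collagen of scarred lung, while alveolar epithelium and endothelium contribute to the basement membrane they share. The triple helix requires glycine in a strict repeat along the chain, which can be read in some of the probes themselves, with the glycine codons in capitals (6 in each 60-base probe). Neither of these is the probe its gene was tested with.
Col20a1 probe: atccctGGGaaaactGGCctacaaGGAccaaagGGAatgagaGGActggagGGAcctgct
Col4a5 probe: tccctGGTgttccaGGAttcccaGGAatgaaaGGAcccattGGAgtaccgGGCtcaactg

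A level below is the log2 signal of a probe minus the 75th percentile of the same array, so that 0 marks a probe as bright as that percentile and 1 unit is a doubling; a difference is between group means of these levels, with its standard error (SE). Levels of different probes are not compared, because probes differ in brightness. A gene was called where limma's moderated test, fitted to all 35 arrays and adjusted by Benjamini-Hochberg over 24468 genes, gave an adjusted p under 0.05. A gene with several probes was represented by its brightest one. Lung markers fitted the label: all 15 of the markers checked were well above background on all 35 arrays. The share of spots well above background ranged from 66.1% (a WT NM-403 array) to 86.4% (a WT Mitsui-7 array) over the arrays. Outside the WT Mitsui-7 group the highest share was 74.6%. Arrays lay on 5 slides of 6 to 8 arrays, each holding 5 or 6 of the groups. Arrays of 1 slide resembled each other: deviations from the group means correlated with a mean of 0.223 within slides and -0.082 between slides. Every called collagen difference kept its direction on each slide that held both groups. Scaling moved the balance of calls over all genes: in WT rats under Mitsui-7, 60.2% of the called genes were higher, against 43.1% when arrays were scaled on their median and 44.3% after quantile normalisation, and for WT Mitsui-7 against WT NM-403 rats these shares were 83.4%, 66.4% and 69.9%.

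Collagens changed in both directions after Mitsui-7: Col1a2, Col3a1, Col5a3 and Col9a2 were higher and Col4a4, Col6a4 and Col13a1 lower in both genotypes. Col1a1 and Col15a1 were also called higher in WT rats, and in p53het rats Col16a1 and Col18a1 were called higher and Col11a2 lower. A second Col1a1 probe passed in both genotypes, and no collagen was called for a difference in response between genotypes. After NM-403, Col9a2 and Col16a1 were higher in both genotypes and Col20a1 was lower in WT rats. In WT rats, 9 of 39 collagens were called under Mitsui-7, 6 higher and 3 lower, where 14.0% of all tested genes were called, 8.41% higher and 5.56% lower. In p53het rats, 10 of 39 were called, 6 higher and 4 lower, against 11.6% of all genes, 5.29% higher and 6.29% lower. Under NM-403, 3 collagens were called in WT rats (2 higher and 1 lower; 3.20% of all genes) and 2 in p53het rats (both higher; 1.52% of all genes). The median difference over the 39 collagens was -0.04 and 0.03 under Mitsui-7 in WT and p53het rats, beside 0.03 and -0.02 over all genes. Its sign under Mitsui-7 changed with the processing, from -0.13 (quantile normalisation) to 0.10 (normexp background correction) in WT rats and from -0.01 to 0.06 in p53het rats. It was -0.17 and -0.16 under NM-403, beside -0.00 and -0.08 over all genes. In all, 14 collagens were called in at least 1 of the 9 comparisons and 25 in none. The WT NM-403 count fell to 1 without WT vehicle array 4, WT vehicle array 6 or WT NM-403 array 5, and the p53het NM-403 count to 1 without p53het NM-403 array 2.

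**Figure D1:**
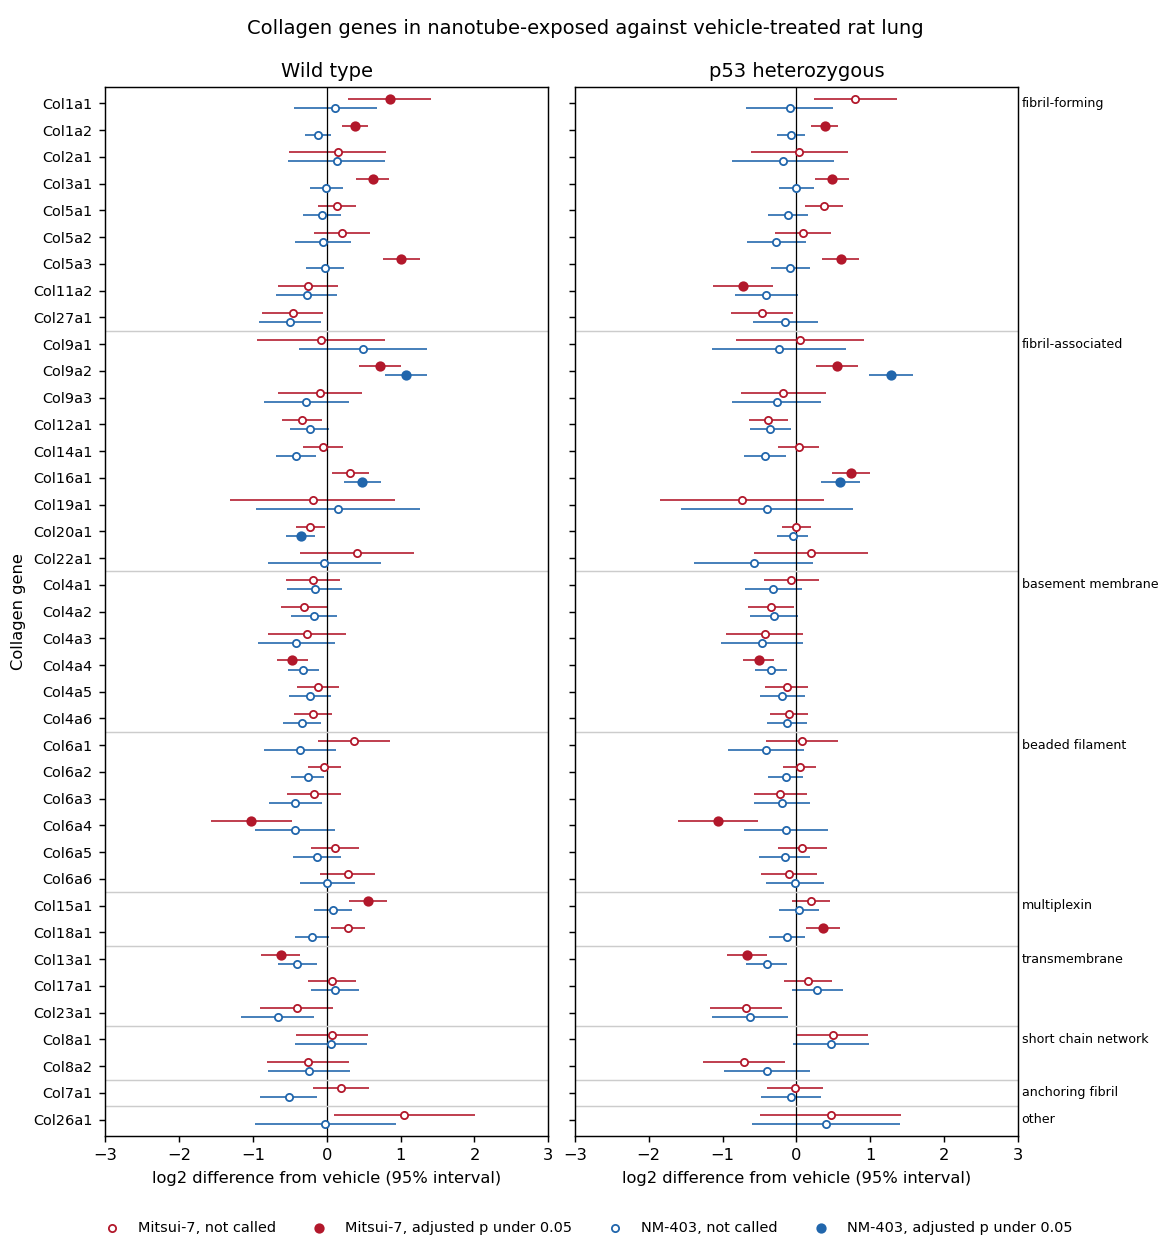
Log2 difference of each of the 39 tested collagens from the vehicle rats of the same genotype (horizontal axis), with 1 panel per genotype, Mitsui-7 in red and NM-403 in blue, points for the difference, bars for its 95% interval, and filled points for an adjusted p under 0.05. The filled points lie on both sides of 0 under Mitsui-7 (6 higher and 3 lower in WT rats, 6 and 4 in p53het rats) and are few under NM-403 (3 and 2).

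Among fibrillar collagens, 4 of 9 tested genes (Col1a1, Col1a2, Col3a1 and Col5a3) were higher under Mitsui-7 in WT rats, and 3 of 9 (Col1a2, Col3a1 and Col5a3) in p53het rats, where Col11a2 was lower. None of the 9 was called by limma under NM-403 in either genotype, with 1 in WT rats and 0 in p53het rats at an unadjusted p under 0.05. The median difference of the class was 0.20 and 0.37 under Mitsui-7 and -0.06 and -0.11 under NM-403.

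Col5a3 encodes the alpha 3 chain of type V collagen, a minor chain that joins the fibrils of type I. In WT rats its level was -3.38, -3.18 and -2.73 (lowest, median, highest) with vehicle, -2.49, -2.00 and -1.91 with Mitsui-7, and -3.33, -3.11 and -2.84 with NM-403. The p53het rats were at -3.27, -3.12 and -2.82 with vehicle and -2.75, -2.58 and -1.97 with Mitsui-7, and the 5 NM-403 rats were at -3.16, -3.32, -3.28, -3.04 and -3.07. Every Mitsui-7 rat lay above every vehicle and every NM-403 rat of its genotype, and NM-403 rats lay among the vehicle rats or below them. The Mitsui-7 difference was 1.01 in WT rats (SE 0.12, 2.01-fold, limma adjusted p = 4.96e-07) and 0.60 in p53het rats (1.52-fold, limma adjusted p = 0.00111). NM-403 gave -0.02 and -0.08. On single slides, the WT Mitsui-7 difference ranged from 0.82 to 1.39.

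Type I collagen is a heterotrimer of alpha 1 chains (Col1a1) and an alpha 2 chain (Col1a2). Col1a2 levels in WT rats were 3.39, 3.61 and 3.67 with vehicle, 3.77, 3.99 and 4.14 with Mitsui-7, and 3.33, 3.41 and 3.77 with NM-403. In p53het rats they were 3.40, 3.60 and 3.91 with vehicle and 3.83, 4.04 and 4.20 with Mitsui-7, and 3.46, 3.65, 3.50, 3.67 and 3.51 in the 5 NM-403 rats. All 6 WT Mitsui-7 rats exceeded the WT vehicle rats, whereas 4 of 6 did so in the p53het groups, which overlapped. The difference was 0.38 in WT rats (SE 0.09, 1.30-fold, limma adjusted p = 0.00285) and 0.38 in p53het rats (limma adjusted p = 0.00341). NM-403 gave -0.12 and -0.07, neither called.

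Col1a1 was measured by 2 probes, which differed in scatter. The brighter probe, used for the test, read 2.20, 2.65 and 3.22 with vehicle and 3.26, 3.53 and 3.81 with Mitsui-7 in WT rats, a difference of 0.85 (SE 0.28, 1.80-fold, limma adjusted p = 0.0354). The same probe read 1.46, 2.85 and 3.33 with vehicle and 2.31, 3.58 and 3.69 with Mitsui-7 in p53het rats, which overlapped, with a difference of 0.79 (SE 0.28) that did not pass (limma adjusted p = 0.0571). Adding slide to the model gave 0.71 in WT rats (SE 0.13, limma adjusted p = 0.000241) and 0.60 in p53het rats (SE 0.13, limma adjusted p = 0.0015). The WT call was lost, with differences of 0.75 to 0.87 and limma adjusted p of 0.0518 to 0.0912, when WT vehicle array 1, 3, 5 or 6 or WT Mitsui-7 array 1, 2 or 4 was left out.

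The second Col1a1 probe read 1.40, 1.72 and 2.04 with vehicle, 2.43, 2.67 and 3.03 with Mitsui-7, and 1.57, 1.82 and 2.15 with NM-403 in WT rats. In p53het rats it read 1.42, 1.83 and 2.29 with vehicle, 2.50, 2.76 and 3.13 with Mitsui-7, and 1.83, 2.39, 1.86, 2.12 and 2.30 in the 5 NM-403 rats. Mitsui-7 rats stood apart from all other rats of their genotype on this probe. In a fit over probes the Mitsui-7 difference was 0.99 in both genotypes (SE 0.14 in each; limma adjusted p = 9.62e-06 in WT and 1.64e-05 in p53het rats). NM-403 gave 0.15 and 0.32, with limma adjusted p of 0.741 and 0.415.

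Col3a1, the homotrimeric type III chain found with type I in distensible tissues, read 1.91, 2.10 and 2.35 with vehicle, 2.54, 2.76 and 2.86 with Mitsui-7 and 1.81, 2.10 and 2.39 with NM-403 in WT rats. For p53het animals the values were 2.03, 2.24 and 2.42 with vehicle, 2.35, 2.67 and 3.05 with Mitsui-7, and 1.99, 2.21, 2.30, 2.30 and 2.39 in the 5 NM-403 rats. The WT Mitsui-7 rats did not overlap the other WT groups, and 5 of 6 p53het Mitsui-7 rats exceeded every p53het vehicle rat. The difference was 0.62 in WT rats (SE 0.11, 1.54-fold, limma adjusted p = 0.000159) and 0.48 in p53het rats (1.40-fold, limma adjusted p = 0.00338), and -0.01 and -0.00 under NM-403.

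**Figure D2:**
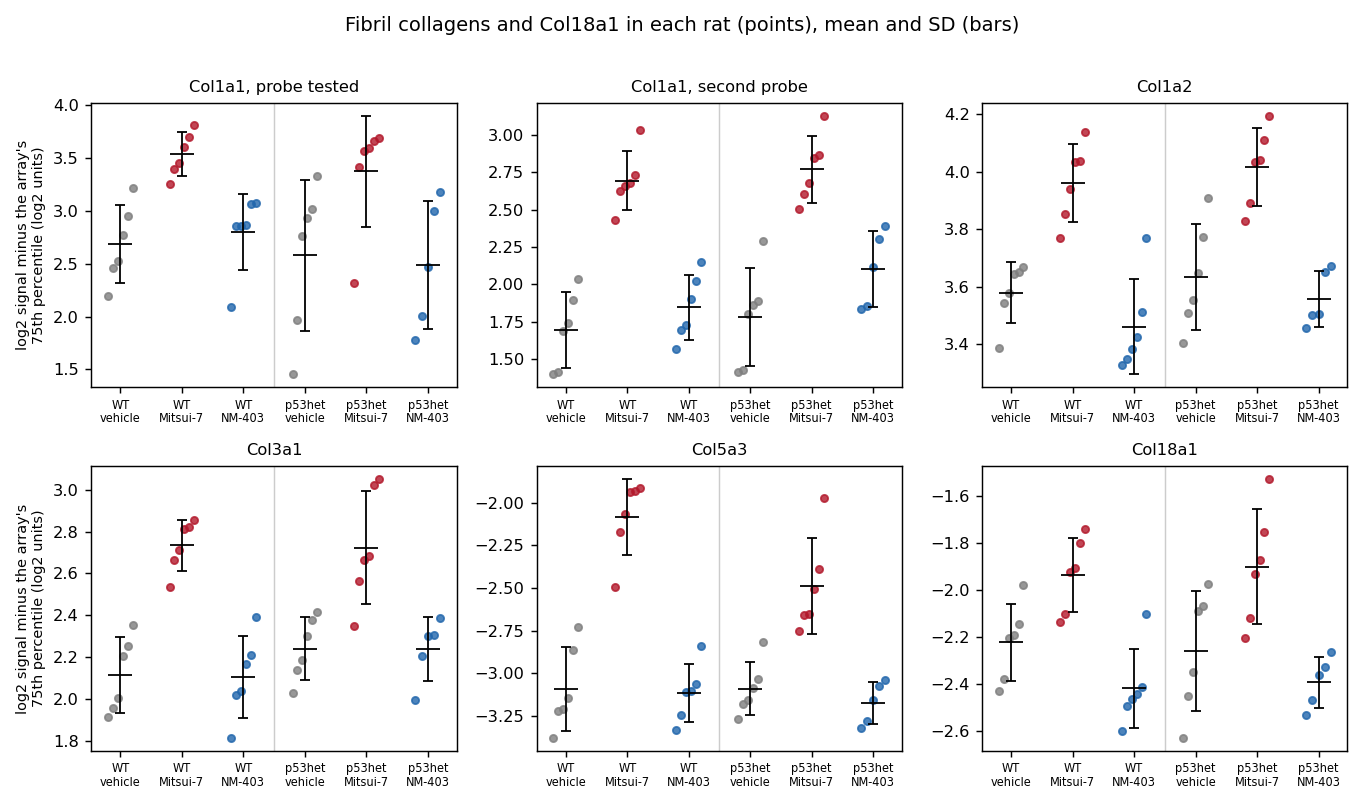
Level of each rat (log2 signal minus the array's 75th percentile, vertical axis) by group for both Col1a1 probes, Col1a2, Col3a1, Col5a3 and Col18a1, with points for rats and bars for the group mean and SD. On the second Col1a1 probe and for Col5a3 the Mitsui-7 rats of each genotype lie above all vehicle and NM-403 rats of that genotype.

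Of the other fibrillar genes, only Col11a2 was called, in p53het Mitsui-7 rats. Col5a1, the chief alpha 1 chain of type V collagen, differed by 0.14 in WT rats and by 0.37 in p53het rats under Mitsui-7 (limma adjusted p = 0.519 and 0.053, the latter 0.0336 when slide was a fixed term), and Col5a2, its alpha 2 partner, by 0.20 and 0.08. Col2a1, the cartilage fibril chain, differed by 0.15 and 0.04, and Col27a1 by -0.46 and -0.46; none was called. Col11a2, a chain of the cartilage fibril type XI, was lower in p53het Mitsui-7 rats, at -5.08, -4.57 and -4.19 against -4.57, -3.79 and -3.53 with vehicle, and the groups overlapped. The difference was -0.72 (SE 0.20, limma adjusted p = 0.0152). It missed the threshold without p53het Mitsui-7 array 5 (-0.63, limma adjusted p = 0.0537) and with normexp background correction (-0.41, limma adjusted p = 0.0589), and the difference in WT rats was -0.26.

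Promoter sequence of RefSeq (assembly GRCr8) was found for 35 of the 44 collagens, as a window from 250 bases before to 50 after the annotated start. The Col1a2 and Col5a3 windows are shown, from 250 to 131 bases before the start. Both genes rose with Mitsui-7 in both genotypes. Col9a2 did so too, but its window is not shown because its annotated start looked doubtful. Capitals mark CCAAT, written ATTGG where it lies on the other strand, and TATAAA. In Col1a2 the latter begins 40 bases before the end of the stretch shown, far from the annotated start. Whether the annotated starts are those used in lung was not tested.
Col1a2, chr4:33518307-33518426, plus strand: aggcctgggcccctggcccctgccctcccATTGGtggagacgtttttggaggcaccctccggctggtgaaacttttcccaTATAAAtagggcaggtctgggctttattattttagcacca
Col5a3, chr8:27626079-27626198, minus strand: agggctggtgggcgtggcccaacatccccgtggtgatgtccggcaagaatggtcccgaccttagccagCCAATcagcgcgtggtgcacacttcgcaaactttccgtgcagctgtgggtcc
Over 33469 windows of 300 bases, searched on both strands, CCAAT was present in 37.5%, TATAAA in 14.2% and GGGCGG in 33.1%. Among the 35 collagen windows these letters were present in 11 (31.4%), 4 (11.4%) and 19 (54.3%). The Col9a2 window held none of them. A match describes the letters of the window and is not evidence of binding.

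Fibril-associated collagens carry interrupted triple helices and coat fibrils without forming them; 9 were tested. Col9a2 was called higher in all 4 exposures, Col16a1 in all but WT Mitsui-7 rats, and Col20a1 lower in 1. Col12a1 and Col14a1, which bind type I fibrils, did not pass in any exposure, though some alternative fits called them. Col12a1 differed by -0.34 and -0.38 under Mitsui-7 and by -0.23 and -0.35 under NM-403 (WT, then p53het). Col14a1 differed by -0.05 and 0.03 under Mitsui-7 and by -0.42 and -0.42 under NM-403, with limma adjusted p of 0.0829 and 0.146 for the latter pair. With slide as a fixed block, Col12a1 passed under Mitsui-7 (-0.30 and -0.33, limma adjusted p = 0.0465 and 0.0262) and in p53het NM-403 rats (-0.40, limma adjusted p = 0.0414), and Col14a1 passed in WT NM-403 rats (-0.41, limma adjusted p = 0.0362). Array weights called Col14a1 in p53het NM-403 rats (-0.63, limma adjusted p = 0.00421). Col12a1 in p53het Mitsui-7 rats also passed with a replicate block and with a stricter filter on dim probes.

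Col9a2, the alpha 2 chain of type IX collagen, a cartilage protein that decorates type II fibrils, was the collagen with the largest called difference under NM-403. In WT rats it read -2.56, -2.27 and -2.13 with vehicle, -1.91, -1.61 and -1.24 with Mitsui-7, and -1.50, -1.32 and -0.93 with NM-403. In p53het rats it read -2.58, -2.53 and -2.33 with vehicle and -2.35, -1.94 and -1.58 with Mitsui-7, and the 5 NM-403 rats were at -1.41, -1.42, -1.44, -0.90 and -0.96. All NM-403 rats exceeded all vehicle rats of their genotype; with Mitsui-7 this held for all 6 WT rats and for 5 of 6 p53het rats. NM-403 gave 1.08 in WT rats (2.11-fold, limma adjusted p = 1.56e-05) and 1.28 in p53het rats (SE 0.15, 2.43-fold, limma adjusted p = 3.31e-06). Mitsui-7 gave 0.72 (SE 0.14, 1.65-fold, limma adjusted p = 0.000455) and 0.55 (1.46-fold, limma adjusted p = 0.0085). On single slides the p53het Mitsui-7 difference ranged from 0.0031 to 0.90.

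Type IX collagen also needs the alpha 1 and alpha 3 chains, and neither was called: under NM-403, Col9a1 differed by 0.49 in WT and -0.24 in p53het rats, and Col9a3 by -0.28 and -0.27. Col9a1 was well above background on 11 of 35 arrays, so little can be read from it, and Col9a3 on 34. Of the 10 cartilage markers listed, 6 were tested, 5 of them well above background on every array. Their mean level ranged from -4.32 to -3.91 in WT vehicle rats, from -4.64 to -3.99 with NM-403 and from -4.31 to -3.79 with Mitsui-7. Of these 6 markers none was called higher under either material, and 1 (Cytl1) was lower in 3 of the 4 exposures; its WT NM-403 call was lost (limma adjusted p up to 0.117) without WT vehicle array 1, 3 or 5 or WT NM-403 array 1, 2, 4 or 6.

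Col16a1 encodes the homotrimeric type XVI chain, which associates with fibrils and fibrillin microfibrils. Levels in WT rats were 1.72, 1.89 and 2.31 with vehicle, 2.03, 2.30 and 2.47 with Mitsui-7, and 2.28, 2.44 and 2.62 with NM-403. In p53het rats they were 1.67, 1.84 and 2.09 with vehicle and 2.14, 2.70 and 2.85 with Mitsui-7, and 2.19, 2.74, 2.48, 2.22 and 2.64 in the 5 NM-403 rats. In p53het rats both exposed groups lay wholly above the vehicle group, while in WT rats both overlapped it. Mitsui-7 gave 0.74 in p53het rats (1.67-fold, limma adjusted p = 9.54e-05) and 0.32 in WT rats (limma adjusted p = 0.0824; 0.37 and 0.00724 when slide was a fixed term). NM-403 gave 0.59 (SE 0.13, 1.51-fold, limma adjusted p = 0.00984) and 0.48 (SE 0.12, 1.39-fold, limma adjusted p = 0.0241). The WT NM-403 call was lost, at 0.43 to 0.48 and limma adjusted p of 0.0503 to 0.0669, without WT vehicle array 2, 4, 5 or 6 or WT NM-403 array 5 or 6, and also after quantile normalisation (0.42, limma adjusted p = 0.0628) or median scaling (0.48, limma adjusted p = 0.0518). The p53het NM-403 call was lost without p53het NM-403 array 2 (0.52, limma adjusted p = 0.0552).

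Col20a1, a little studied member of the class, was lower with NM-403 in WT rats, at -1.11, -0.94 and -0.70 against -0.86, -0.53 and -0.40 with vehicle. The difference was -0.35 (SE 0.10, limma adjusted p = 0.0361), and its other 3 probes gave 0.18, -0.45 and -0.19 with no call. The mean over all probes gave -0.20 (limma adjusted p = 0.395). The call was also lost, at -0.36 to -0.32 and limma adjusted p of 0.0579 to 0.0998, without WT vehicle array 1, 3, 4 or 6 or WT NM-403 array 2, 4 or 5. In p53het rats NM-403 gave -0.05.

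**Figure D3:**
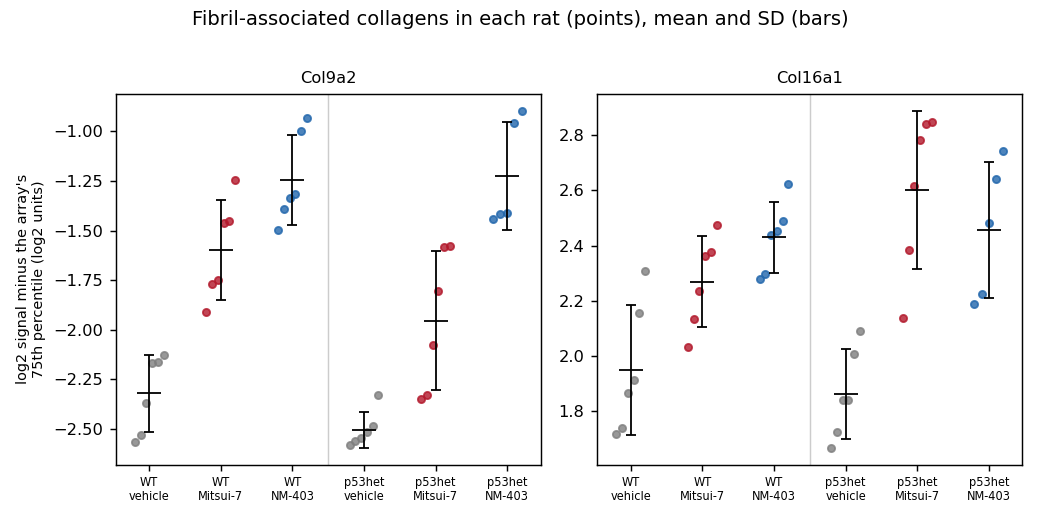
Level of each rat (log2 signal minus the array's 75th percentile, vertical axis) by group for Col9a2 and Col16a1, with points for rats and bars for the group mean and SD. For Col9a2 the NM-403 rats, from -1.50 to -0.93 in WT and from -1.44 to -0.90 in p53het animals, lie above all vehicle rats of their genotype.

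Basement membrane collagen IV forms networks from 6 chains: alpha 1 and alpha 2 are general, and alpha 3, alpha 4 and alpha 5 make up the network found in the alveolar wall and the kidney glomerulus. All 6 genes had negative differences in each of the 4 exposures, also after median scaling, quantile normalisation and normexp correction, and Col4a4 alone was called without a batch term or array weights. The class median was -0.23 and -0.24 under Mitsui-7 and -0.27 and -0.31 under NM-403. Of all 39 collagens, 19 and 20 had positive differences under Mitsui-7 and 10 and 6 under NM-403 (WT, then p53het). Over all 24468 genes, 13203 and 11456 were positive under Mitsui-7 and 12164 and 8872 under NM-403. In p53het NM-403 rats all 9 fibrillar and all 6 beaded filament genes were negative as well. Col4a4 levels in WT rats were 2.11, 2.25 and 2.49 with vehicle, 1.43, 1.85 and 2.08 with Mitsui-7, and 1.78, 1.97 and 2.08 with NM-403. In p53het rats they were 2.12, 2.23 and 2.41 with vehicle and 1.40, 1.72 and 2.10 with Mitsui-7, and 2.10, 1.84, 2.02, 1.81 and 1.75 in the 5 NM-403 rats. Every exposed rat lay below every vehicle rat of its genotype. Mitsui-7 gave -0.47 in WT rats (SE 0.10, limma adjusted p = 0.00187) and -0.51 in p53het rats (limma adjusted p = 0.00105), and all 4 probes of the gene were called in both genotypes, from -0.66 to -0.46 and from -0.74 to -0.51. NM-403 gave -0.32 and -0.34, short of the threshold (limma adjusted p = 0.0884 and 0.116); 1 of the other 3 probes passed in both genotypes (-0.35 in each, limma adjusted p = 0.0133 and 0.0322), as did the tested probe with slide in the model (-0.30 and -0.34, limma adjusted p = 0.0347 and 0.0372). Its partner Col4a3 differed by -0.27 and -0.43 under Mitsui-7 and by -0.41 and -0.47 under NM-403. The p53het Mitsui-7 difference of Col4a3 passed when slide was a fixed term (-0.58, limma adjusted p = 0.0241) or a random one (-0.55, limma adjusted p = 0.043) and with scan day (-0.58, limma adjusted p = 0.0242). Col4a1 and Col4a2 ranged from -0.35 to -0.07 over the 4 exposures, and Col4a5 and Col4a6 from -0.33 to -0.11, with no call; array weights called Col4a2 in p53het Mitsui-7 rats (-0.39, limma adjusted p = 0.0425).

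Among the 6 chains of collagen VI, which forms beaded microfilaments around cells, Col6a4 alone was called. It read -3.97, -3.39 and -3.08 with vehicle, -5.29, -4.26 and -3.79 with Mitsui-7, and -4.72, -3.64 and -3.58 with NM-403 in WT rats. The p53het values were -4.06, -3.50 and -3.39 with vehicle and -5.31, -4.49 and -4.38 with Mitsui-7, and the 5 NM-403 rats were at -4.20, -3.29, -2.94, -3.97 and -4.40. In p53het rats the Mitsui-7 group lay wholly below the vehicle group, and in WT rats 4 of 6 did. The difference was -1.02 in WT rats (SE 0.27, limma adjusted p = 0.00859) and -1.06 in p53het rats (limma adjusted p = 0.00729), the largest lowerings of a collagen that passed the test against vehicle. NM-403 gave -0.43 and -0.14, not called. The main chains Col6a1, Col6a2 and Col6a3 ranged from -0.22 to 0.37 under Mitsui-7, also without a call.

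Col13a1 encodes a transmembrane collagen found at cell-matrix junctions. It read 1.27, 1.46 and 1.57 with vehicle, 0.40, 0.86 and 1.11 with Mitsui-7 and 0.83, 0.94 and 1.35 with NM-403 in WT rats. The p53het levels were 1.22, 1.36 and 1.77 with vehicle, 0.35, 0.85 and 1.03 with Mitsui-7, and 1.20, 0.98, 0.99, 1.11 and 0.75 in the 5 NM-403 rats. Mitsui-7 rats of both genotypes lay wholly below their vehicle rats. The difference was -0.62 in WT rats (SE 0.13, limma adjusted p = 0.00108) and -0.67 in p53het rats (limma adjusted p = 0.000728), and both probes of the gene passed in each. NM-403 gave -0.40 in both genotypes, with limma adjusted p of 0.0948 and 0.161; array weights called the WT difference (-0.45, limma adjusted p = 0.0228) and slide as a random block the p53het one (-0.42, limma adjusted p = 0.0464). Of the other transmembrane collagens, Col17a1 of epithelial hemidesmosomes differed by 0.07 and 0.15 under Mitsui-7 and Col23a1 by -0.41 and -0.69, with no call. The p53het difference of Col23a1 passed when slide was a fixed term (-0.71, limma adjusted p = 0.0341) or a random one, with scan day and with array weights, the last also under NM-403 (-0.76, limma adjusted p = 0.028). The short chain network collagens Col8a1 and Col8a2 differed by 0.49 and -0.71 in p53het Mitsui-7 rats (limma adjusted p = 0.196 and 0.0926). Col8a1 passed when slide was a fixed term (0.63, limma adjusted p = 0.0173) and Col8a2 after quantile normalisation (-0.77, limma adjusted p = 0.0409).

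**Figure D4:**
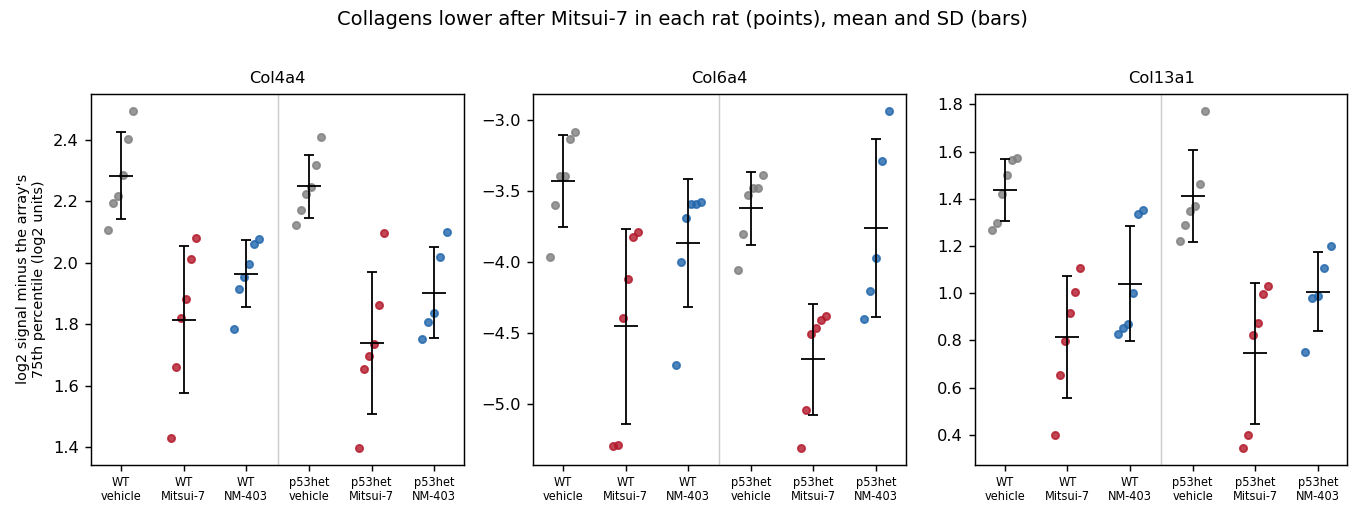
Level of each rat (log2 signal minus the array's 75th percentile, vertical axis) by group for Col4a4, Col6a4 and Col13a1, with points for rats and bars for the group mean and SD. For Col4a4 and Col13a1 the Mitsui-7 rats of each genotype lie below all vehicle rats of that genotype, and for Col6a4 this holds in p53het rats.

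The multiplexins Col15a1 and Col18a1 are basement membrane zone proteins with glycosaminoglycan chains, and the cleaved end of Col18a1 is endostatin. Col15a1 read 0.36, 0.66 and 0.76 with vehicle, 0.95, 1.09 and 1.44 with Mitsui-7, and 0.52, 0.68 and 0.91 with NM-403 in WT rats, and the Mitsui-7 group did not overlap the others. The WT difference was 0.55 (SE 0.12, 1.47-fold, limma adjusted p = 0.00216), while p53het rats differed by 0.20 (limma adjusted p = 0.355) and overlapped, with medians of 0.85 with vehicle and 1.01 with Mitsui-7. NM-403 gave 0.09 and 0.03.

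Col18a1 read -2.43, -2.20 and -1.98 with vehicle, -2.13, -1.92 and -1.74 with Mitsui-7 and -2.60, -2.45 and -2.10 with NM-403 in WT rats. In p53het rats it read -2.63, -2.22 and -1.97, then -2.20, -1.90 and -1.53, and the 5 NM-403 rats were at -2.53, -2.47, -2.27, -2.33 and -2.36. Both Mitsui-7 groups overlapped their vehicle groups. The p53het Mitsui-7 difference was 0.36 (SE 0.11, 1.28-fold, limma adjusted p = 0.036) and the WT one 0.29 (limma adjusted p = 0.0914, but 0.0478 and 0.0389 when slide was a fixed or a random term and 0.0406 with array weights). The p53het call was lost, at 0.28 to 0.36 and limma adjusted p of 0.0539 to 0.112, without p53het vehicle array 3, 4 or 6 or p53het Mitsui-7 array 1, 2, 4 or 6.

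Mitsui-7 and NM-403 rats, compared directly, differed in 6 collagens in WT animals, all higher with Mitsui-7 (3.33% of all genes were called, 2.78% higher), and in 5 in p53het animals, 4 higher and 1 lower (1.37% of all genes). These comparisons use the same Mitsui-7 and NM-403 rats as the comparisons with vehicle and are not independent of them. Col5a3 differed by 1.03 in WT rats (limma adjusted p = 1.39e-06) and 0.69 in p53het rats (SE 0.13, limma adjusted p = 0.00173). Col1a2 differed by 0.50 and 0.46 (limma adjusted p = 0.000461 and 0.00389), Col3a1 by 0.63 and 0.48 (limma adjusted p = 0.000441 and 0.0227) and Col18a1 by 0.48 and 0.49 (limma adjusted p = 0.0106 and 0.0259). Col1a1 did not pass on the tested probe (0.74 and 0.89, limma adjusted p = 0.176 and 0.152) and passed on the second (0.84 and 0.67, limma adjusted p = 0.000378 and 0.0149). With slide in the model the tested probe passed in both genotypes (0.58 and 0.63). In WT rats Col15a1 (0.47, limma adjusted p = 0.0273) and Col7a1 (0.71, SE 0.19, limma adjusted p = 0.0265) were also higher with Mitsui-7. Col7a1, the anchoring fibril chain, read -3.98, -3.47 and -3.22 with Mitsui-7, -4.87, -4.20 and -3.82 with NM-403 and -4.09, -3.76 and -3.43 with vehicle, and differed from vehicle by 0.19 and -0.52 without a call.

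In p53het rats Col9a2 went the other way, lower with Mitsui-7 than with NM-403 by a log2 difference of -0.73 (SE 0.15, limma adjusted p = 0.00396), with every Mitsui-7 rat below every NM-403 rat; the WT difference was -0.35 (limma adjusted p = 0.218) and the groups overlapped. Several of the other calls between the materials were lost when any 1 of several arrays was left out, or with another scaling. Col15a1 in WT rats was lost (0.41 to 0.46, limma adjusted p = 0.0511 to 0.0826) without WT Mitsui-7 array 3 or 6 or WT NM-403 array 1, 2 or 6, and Col7a1 (0.58 to 0.69, limma adjusted p = 0.054 to 0.0905) without WT Mitsui-7 array 1, 2 or 6 or WT NM-403 array 1, 4 or 6. In p53het rats Col3a1 was lost (0.42 to 0.48, limma adjusted p = 0.0607 to 0.0832) without p53het Mitsui-7 array 2 or 4 or p53het NM-403 array 1 or 2, and Col18a1 (0.42 to 0.50, limma adjusted p = 0.0521 to 0.0868) without p53het Mitsui-7 array 2 or 4 or p53het NM-403 array 1, 2 or 5. The p53het count was then 3 without p53het Mitsui-7 array 2 or 4 or p53het NM-403 array 1 or 2. Median scaling left 3 of the 6 WT calls (Col1a2, Col3a1 and Col5a3) and 2 of the 5 p53het calls (Col5a3 and Col9a2).

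The genotypes were compared through vehicle rats and through the difference between genotypes in the response. None of the 39 collagens, and none of all genes, was called by limma between p53het and WT vehicle rats (0 collagens and 483 of all genes at an unadjusted p under 0.05). The response to Mitsui-7 differed between genotypes in 0 collagens after adjustment, with 3 at an unadjusted p under 0.05 (729 of all genes), and the response to NM-403 in 0, with 1 (413 of all genes). Alternative fits with array weights or with slide as a random block each called 2 genes for the Mitsui-7 response, neither a collagen. The 3 collagens were Col5a3, with a p53het minus WT response of -0.40 (95% interval -0.76 to -0.05), Col16a1 with 0.42 (0.06 to 0.78) and Col15a1 with -0.36 (-0.72 to -0.00). The 1 for NM-403 was Col20a1, with 0.30 (0.02 to 0.59). Intervals for other called genes spanned 0, such as -0.25 to 0.26 for Col1a2 and -0.46 to 0.18 for Col3a1 under Mitsui-7 and -0.21 to 0.62 for Col9a2 under NM-403; differences of either sign lie within these bounds. Counted by calls in the same direction, Col1a2, Col3a1, Col5a3, Col9a2, Col4a4, Col6a4 and Col13a1 passed under Mitsui-7 in both genotypes, 7 of the 9 WT calls and 7 of the 10 p53het calls. Col9a2 and Col16a1 passed in both under NM-403. The matching share over all genes was not counted, so this agreement cannot be read as particular to collagens.

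Genes that process collagen were measured beside the chains; 23 were tested (14.0% and 11.6% of all genes were called under Mitsui-7 in WT and p53het rats), and 3 rose and 1 fell in WT Mitsui-7 rats, 2 rose and 2 fell in p53het Mitsui-7 rats, 1 rose in WT NM-403 rats and none was called by limma in p53het NM-403 rats (5 at an unadjusted p under 0.05). Over all genes, 3.20% and 1.52% were called under NM-403 (WT, then p53het). Plod2, the lysyl hydroxylase of the telopeptides, rose by 0.56 (SE 0.11, limma adjusted p = 0.000277) and 0.40 (limma adjusted p = 0.00994) under Mitsui-7, and differed by -0.07 and -0.13 under NM-403. Adamts3, a procollagen N-proteinase, rose by 1.77 in WT rats (SE 0.41, limma adjusted p = 0.00279), a value that was 0.50 with normexp correction and then missed the threshold, as did the mean over all its probes (limma adjusted p up to 0.0613). Ppib, the cyclophilin of the prolyl hydroxylation complex, rose by 0.22 and 0.23 under Mitsui-7 and by 0.25 in WT NM-403 rats; without WT NM-403 array 6, or with median scaling or normexp correction, the NM-403 call was lost (limma adjusted p up to 0.0691). Median scaling also ended the WT Mitsui-7 call of Ppib (limma adjusted p = 0.206) and quantile normalisation the p53het one (limma adjusted p = 0.0628). P3h2, a prolyl hydroxylase, fell by 0.65 in WT rats and by 0.49 in p53het rats under Mitsui-7. Its p53het call was lost (limma adjusted p up to 0.0965) without p53het vehicle array 1, 4, 5 or 6 or p53het Mitsui-7 array 2, 5 or 6. Colgalt2, a hydroxylysine galactosyltransferase, fell by 0.55 in p53het Mitsui-7 rats, and the mean over its probes was not called (limma adjusted p = 0.0936). The list medians ranged from -0.10 to -0.03 over the 4 exposures.

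Of 9 genes of collagen breakdown tested, 5 rose and 1 fell in WT Mitsui-7 rats and 4 rose in p53het Mitsui-7 rats, beside the same 14.0% and 11.6% of all genes. Each NM-403 comparison had 1 higher and 1 lower. Over all genes, 2.30% and 1.27% were higher and 0.899% and 0.253% lower under NM-403 (WT, then p53het). Ctsk, the lysosomal collagenase cathepsin K, rose by 2.89 (SE 0.27, limma adjusted p = 3.58e-09) and 3.02 (limma adjusted p = 2.09e-09) under Mitsui-7, and under NM-403 by 1.08 in WT rats (limma adjusted p = 0.0222), with 0.99 in p53het rats (limma adjusted p = 0.0777). The WT NM-403 call was lost, with a highest limma adjusted p of 0.0699, without WT vehicle array 2 or 5 or WT NM-403 array 5. Mmp9, a gelatinase, rose by 2.86 and 1.43 and Mmp14, a membrane collagenase, by 0.59 and 0.74 under Mitsui-7. Fap, a fibroblast activation protease, rose by 1.76 and 1.69 under Mitsui-7. In p53het NM-403 rats Fap gave 1.22 (limma adjusted p = 0.0285), which became -0.07 with normexp correction (limma adjusted p = 0.773) and was not called without p53het vehicle array 1 or 2 or p53het NM-403 array 3, 4 or 5. With normexp correction the p53het Mitsui-7 values of Mmp9 and Fap were 0.34 and 0.27 and not called. The WT Mitsui-7 values were called in all 25 alternatives, but ranged from 1.09 to 3.10 for Mmp9 and from 0.50 to 1.93 for Fap.

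The TGF-beta pathway drives collagen transcription in fibroblasts. Of the 12 genes described here, 2 rose and 1 fell under Mitsui-7 in each genotype. Over all genes, 8.41% and 5.29% were higher and 5.56% and 6.29% lower under Mitsui-7 (WT, then p53het). The median difference of the 12 genes was 0.02 and 0.05. None was called by limma under NM-403 (3 in WT and 2 in p53het rats at an unadjusted p under 0.05). Tgfb1, the ligand, rose by 0.68 and 0.52 and Tgfbr1, a receptor, by 0.84 and 0.80, while Smad7, an inhibitor, fell by 0.53 and 0.43, all under Mitsui-7. The p53het call of Smad7 was lost (limma adjusted p up to 0.115) without p53het vehicle array 1, 5 or 6 or p53het Mitsui-7 array 1, 2, 4 or 5. Ccn2, a target of the pathway, differed by -0.13 and 0.15 and was not called.

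Collagen receptors gave 1 higher and 2 lower of 8 tested in WT Mitsui-7 rats and 1 of each in p53het ones. Over all genes, 8.41% and 5.29% were higher and 5.56% and 6.29% lower under Mitsui-7 (WT, then p53het). Under NM-403, 0.899% and 0.253% of all genes were lower. Gp6 of platelets rose by 1.05 in WT Mitsui-7 rats (not called as the mean over its probes, limma adjusted p = 0.335). Itga1, an integrin chain, fell by 0.73 and 0.56 under Mitsui-7. The p53het call of Itga1 was lost (limma adjusted p up to 0.132) without p53het vehicle array 1, 2, 5 or 6 or p53het Mitsui-7 array 1, 2 or 5. Under NM-403, 2 receptors were lower in WT rats and 1 in p53het rats; Mrc2, lower in both, also counts in the breakdown list. Its WT NM-403 call was lost without WT vehicle array 1, 2, 3, 4 or 5 or WT NM-403 array 1, 2, 4, 5 or 6 (limma adjusted p up to 0.142), and the p53het one without p53het vehicle array 2, 3, 4, 5 or 6 or p53het NM-403 array 2, 3, 4 or 5 (limma adjusted p up to 0.25). Fibril-binding proteoglycans, of which 7 were tested, had 3 lower in WT Mitsui-7 rats (Dcn by -0.52, Prelp by -0.46 and Ogn by -0.31), 1 lower in p53het Mitsui-7 rats (Ogn, -0.57) and none called by limma under NM-403 (3 in each genotype at an unadjusted p under 0.05). In WT rats Dcn was lost without WT vehicle array 2 or WT Mitsui-7 array 5, Prelp without WT Mitsui-7 array 5, and Ogn without WT vehicle array 2, 3, 4 or 6 or WT Mitsui-7 array 1 or 3 (limma adjusted p up to 0.0558, 0.106 and 0.085).

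Markers of cell types moved in the same rats. Beside the counts of all marker lists below, 8.41% and 5.29% of all genes were higher and 5.56% and 6.29% lower under Mitsui-7 (WT, then p53het). Under NM-403, 2.30% and 1.27% of all genes were higher and 0.899% and 0.253% lower. In bulk tissue, fewer cells of a type and less RNA per cell cannot be told apart. The fibroblast list (10 of 10 markers well above background on every array) had a mean level from 0.21 to 0.49 in WT vehicle rats, 0.10 to 0.37 with Mitsui-7 and -0.08 to 0.21 with NM-403, and from 0.12 to 0.46, -0.20 to 0.40 and -0.02 to 0.27 in the p53het groups. Of its markers 1 was higher and 1 lower in WT Mitsui-7 rats, 1 was lower in WT NM-403 rats and 2 (Inmt and Pdgfra) were lower in p53het Mitsui-7 rats. That count of 2 was 0 without p53het vehicle array 5, which ended both calls, and Pdgfra was also lost without p53het vehicle array 1, 2 or 6 or p53het Mitsui-7 array 1, 2, 4 or 5 (limma adjusted p up to 0.162). The WT NM-403 call (Tcf21) was lost without WT vehicle array 1, 2, 3, 4 or 6 or WT NM-403 array 1, 2, 4 or 6 (limma adjusted p up to 0.171). None of the 8 smooth muscle and myofibroblast markers was called by limma in any of the 4 exposures, with 0 to 2 at an unadjusted p under 0.05. The macrophage list had 4 of 7 higher in WT and 3 of 7 in p53het Mitsui-7 rats, and 1 and 0 under NM-403 (8.41% and 5.29% of all genes were higher under Mitsui-7). The p53het Mitsui-7 count was 2 without p53het Mitsui-7 array 5. Its median difference was 0.98 and 0.02 under Mitsui-7 and 0.27 and 0.09 under NM-403. Mean levels of the list were -3.28 to -3.08 in WT vehicle, -2.64 to -1.59 in WT Mitsui-7 and -2.83 to -2.47 in WT NM-403 rats, and -3.18 to -2.72, -2.57 to -2.25 and -3.37 to -2.13 in the p53het groups.

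The cardiac muscle list had 4 of 7 lower in WT and 5 of 7 lower in p53het Mitsui-7 rats and none called by limma under NM-403 (1 in WT and 0 in p53het rats at an unadjusted p under 0.05). In p53het rats Tnni3 and Tnnt2 were lost without p53het vehicle array 2 or 5 or p53het Mitsui-7 array 3 or 5, Tnni3 also without p53het vehicle array 3 and Tnnt2 without p53het Mitsui-7 array 1. The mesothelial list had 1 of 6 higher and 3 lower in WT Mitsui-7 rats, 1 higher and 1 lower in p53het Mitsui-7 rats, and 4 and 1 lower under NM-403. Of its calls, Bnc1 in WT NM-403 rats was lost without WT vehicle array 2 or 3 or WT NM-403 array 2 or 6, Upk3b there without WT vehicle array 3 or 5 or WT NM-403 array 6, and Bnc1 in p53het Mitsui-7 rats without p53het vehicle array 3, 4, 5 or 6 or p53het Mitsui-7 array 1, 4 or 5. The WT NM-403 count was then as low as 2. Pericyte markers had 2 of 6 lower in WT and 1 lower in p53het Mitsui-7 rats, and 1 and 0 under NM-403. Of these, Higd1b in WT Mitsui-7 rats was lost without WT vehicle array 1, 2, 3, 5 or 6 or WT Mitsui-7 array 1, 2, 3, 4 or 5, and Cspg4 in WT NM-403 rats without WT vehicle array 1, 2, 3 or 5 or WT NM-403 array 1, 4, 5 or 6.

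Endothelial markers had 5 of 9 lower under Mitsui-7 in each genotype (5.56% and 6.29% of all genes were lower) and none called by limma under NM-403 (4 in WT and 3 in p53het rats at an unadjusted p under 0.05). With 1 array left out these counts were 4 to 5 in WT and 3 to 5 in p53het rats. Cldn5 was lost in WT rats without WT vehicle array 1, 2, 4 or 5 or WT Mitsui-7 array 2, 3, 4, 5 or 6, and in p53het rats without p53het vehicle array 2, 3, 4 or 5 or p53het Mitsui-7 array 3, 4 or 5. Cdh5 was lost in p53het rats without p53het vehicle array 1 or 6 or p53het Mitsui-7 array 1 or 5. Their mean level was 0.71 to 1.03 in WT vehicle rats, -0.02 to 0.67 with Mitsui-7 and 0.59 to 0.82 with NM-403, and 0.79 to 1.06, 0.27 to 0.65 and 0.56 to 0.85 in the p53het groups. Alveolar type 1 markers had 4 and 3 of 6 lower under Mitsui-7 and 1 and 2 under NM-403. The p53het NM-403 count was 1 without p53het NM-403 array 2 (Rtkn2 lost) or 3 (Cav1 lost), and in WT Mitsui-7 rats Pdpn was lost without WT vehicle array 1, 3, 4 or 6 or any 1 of the Mitsui-7 arrays. Their mean level was 3.23 to 3.43 in WT vehicle rats, 2.94 to 3.13 with Mitsui-7 and 2.93 to 3.15 with NM-403, and 3.22 to 3.63, 2.88 to 3.09 and 2.94 to 3.20 in the p53het groups, so both exposed groups lay below vehicle, as for Col4a4. All 9 endothelial and 6 type 1 markers were well above background on every array. None of the 6 alveolar type 2 markers was called by limma (0 or 1 at an unadjusted p under 0.05 in each exposure). The part of these cell types in the collagen differences was not tested.

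Collagen chains were also followed from rat to rat, as deviations from the group mean over 35 rats, in 5 pairs that share a molecule and in Col1a1 with Col3a1, which do not. Col4a1 and Col4a2 varied together (Pearson r = 0.55, permutation p = 0.00163, adjusted 0.00972; Spearman rho = 0.49, permutation p = 0.0053, adjusted 0.0159). So did Col4a3 and Col4a4 (r = 0.51, permutation p = 0.00324, adjusted 0.00972; rho = 0.53, permutation p = 0.00172, adjusted 0.0103). Without the 2 rats farthest from the median, r was 0.46 and 0.55, and with slide means removed 0.45 and 0.70. The permutations shuffled arrays within groups but across slides. Their p-values therefore do not separate variation between slides from variation between rats, and none was computed with slide means removed. Within single slides r ranged from 0.46 to 0.86 for Col4a3 and Col4a4, but from -0.42 to 0.74 for Col4a1 and Col4a2, which therefore did not hold on every slide. Col6a1 and Col6a2 gave r = 0.34 (permutation p = 0.0544, adjusted 0.109), and Col5a1 with Col5a2 gave 0.11. On the tested probes r was -0.15 for the type I chains Col1a1 and Col1a2 and -0.13 for Col1a1 with Col3a1 (permutation p adjusted over the 6 pairs 0.609 for both). Type IV chains of different pairs were not tested against each other. Some arrays were low for both Col4a1 and Col4a3, such as p53het Mitsui-7 array 3 (-0.53 and -1.16) and WT vehicle array 3 (-0.50 and -0.69). Others went apart, such as WT NM-403 array 2 (0.16 and -0.47). Whether the shared variation is particular to partner chains was not tested.

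Each type IV pair is encoded head to head: 76 bases separate the annotated starts of Col4a1 and Col4a2 on chromosome 16, and 412 those of Col4a3 and Col4a4 on chromosome 9. The sequence between the first pair, and the part of the second interval that both promoter windows share, are shown. A link between these sequences and the variation from rat to rat was not tested. Capitals mark GGGCGG, which lies on the other strand and reads CCGCCC.
Col4a2 to Col4a1, chr16:84885521-84885596, plus strand: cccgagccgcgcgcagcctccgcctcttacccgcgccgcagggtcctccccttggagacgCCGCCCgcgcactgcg
Col4a4 to Col4a3, chr9:91323740-91323827, plus strand: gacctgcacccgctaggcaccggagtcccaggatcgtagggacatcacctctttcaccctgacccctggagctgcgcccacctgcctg
The second stretch holds none of the 3 motifs searched. The third pair, Col4a5 and Col4a6 on chromosome X with 1414 bases between the starts, was added after its values were seen and gave r = 0.68 over 35 rats, and 0.41 with slide means removed, as a description.

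**Figure D5:**
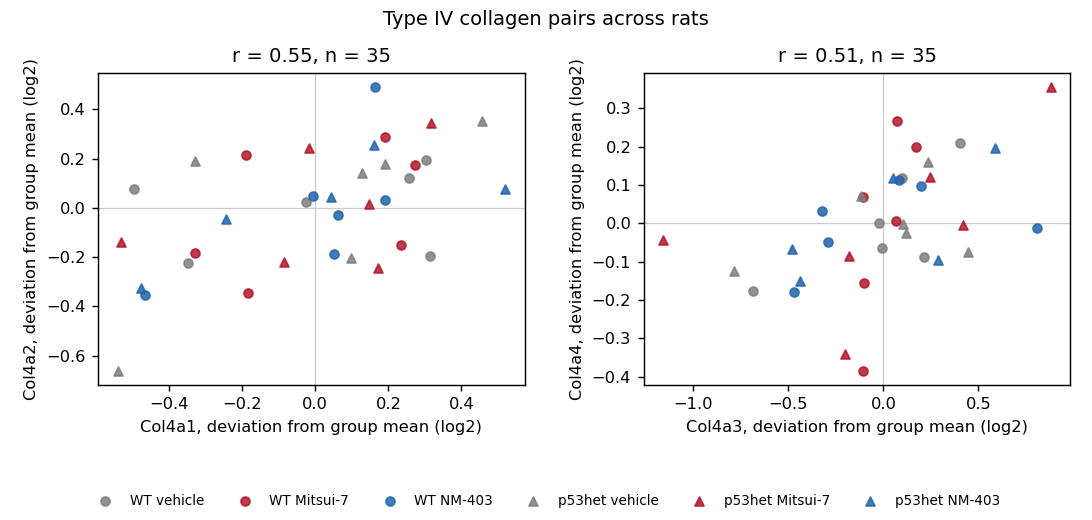
Deviation of each of the 35 rats from its group mean (log2 units) for Col4a1 against Col4a2 and for Col4a3 against Col4a4, with points for rats, colours for the material or vehicle, circles for WT and triangles for p53het rats. The points rise from lower left to upper right in both panels, with r = 0.55 and r = 0.51.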

How the data were processed

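Total RNA of 35 rats was labelled with Cy3 and hybridised to one-colour Agilent rat arrays, and read with Agilent Feature Extraction (version 12.0.1.1 in the submitters' processing notes). The deposited scanner files give intensity per spot, background-subtracted by that software per the file headers (62976 spots, of which 4259 are controls), with probe positions in the rn4 build. A deposited table of the authors' values, which the comparison with the scanner files showed to be log2 intensity (r from 0.995 to 0.999 for each array; column medians from -0.083 to 0.069), served as an alternative; all 11555 of its rows have a median of 0 over the arrays. It holds 22 of the collagens.

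Log2 processed intensities were scaled on the 75th percentile of their array, spots marked as outliers were left out, and spots of a probe were averaged. The brightest probe stood for a gene. A gene needed 5 arrays well above background and 3 measured arrays in every group, which 24468 met. Group means were fitted to all arrays with limma 3.58.1 (R 4.3.3, with the package data.table, version 1.17.8), with 9 contrasts and Benjamini-Hochberg adjustment, after tests of the code on simulated data. Pairs were tested with 100000 permutations within groups. Alternatives covered scaling, background, filters, probes, slide, scan day, array weights and each array left out. Named genes are all collagens, and list members called against vehicle, at most 4 of each list besides the processing list. The collagens, lists and rules were chosen with earlier results of these data known. Some items, 1 of them in the TGF-beta list, are not reported here. The number of arrays limits the precision.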

Additional observations from a re-analysis of the deposited data

Results flagged for a closer look

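Of 84 combinations of a called collagen and a group that were checked, 5 held 1 rat set apart from the others, about the 5% that chance gives. The gap to the nearest rat, as a share of the group's range, was beyond Dixon's critical value in each. Col1a1 was lowest in p53het Mitsui-7 array 3, at 2.31 against 3.41 for the next rat, and in WT NM-403 array 3, at 2.09 against 2.85. Col11a2 was lowest in WT vehicle array 6, at -4.74 against -4.05. Col6a4 was lowest in WT NM-403 array 1, at -4.72 against -4.00. Col9a2 was highest in p53het vehicle array 3, at -2.33 against -2.49.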

How the results depend on the processing

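Over 481 combinations of a called collagen difference and a processing alternative, 464 stayed past the threshold, 17 did not and 0 reversed; over 413 that left out 1 array, 364 stayed, 49 did not and 0 reversed. The WT Mitsui-7 count was 9 to 12 across processing, 7 in the authors' values, which hold 22 collagens without Col5a3 and Col6a4, and 8 to 10 with 1 array left out. The WT NM-403 count of 3 became 1 with median scaling, 5 with slide as a fixed or a random block, with scan day and with array weights, and 1 to 3 with 1 array left out. The p53het Mitsui-7 count of 10 became 16 with slide as a fixed or random block (9 to 12 with 1 array left out), and the p53het NM-403 count of 2 became 4 with slide fixed, 5 with slide random or array weights, and 1 to 2 with 1 array left out. For Mitsui-7 against NM-403, the WT count of 6 became 3 with median scaling (4 to 6 with 1 array left out), and the p53het count of 5 became 3 after quantile normalisation, 2 with median scaling, 8 with array weights and 3 to 6 with 1 array left out. Correlations that changed sign were Col1a1 with Col1a2 (0.14 with slide means removed, 0.013 after quantile normalisation), Col1a1 with Col3a1 (0.21) and Col5a1 with Col5a2 (-0.13), the latter both with slide means removed. The cause was not tested.

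Replicate numbers do not pair the arrays (mean correlation of same-numbered deviations 0.030, from -0.574 to 0.693 over 85 pairs); with a replicate block the counts were 9 and 3 in WT and 12 and 2 in p53het rats under Mitsui-7 and NM-403, and 6 and 6 between the materials. The count of Gly-X-Y runs in proteins was not run, as no protein sequences were used here. Dim probes such as those of Adamts3 and Fap depend on the background correction.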
